A study of Mus musculus with 3 samples.

Results

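The cells described here are the dividing microglia of a mouse thalamus data set: all cells that the authors' deposited table places in cluster 4 and assigns the cell cycle phase G2M. There were 223 such cells among 7598. They are called cluster 4 G2M cells below. They were set against the 1796 G1 cells of cluster 0, more than any other cluster held, and against the 123 cells of cluster 4 called S, the phase of DNA replication. The thalamus was taken 4 hours after an intraventricular injection, its CD45+ cells (microglia and any other leukocytes) were sorted, and their transcripts were counted cell by cell as unique molecular identifiers (UMIs) in droplets. Each of the 3 groups was 1 library. The WT_IL33 group was heterozygous for Cx3cr1-creER and received the cytokine IL-33. The cKO_IL33 group carried Cx3cr1-creER heterozygous and was homozygous for floxed ST2, the receptor for IL-33 and the product of Il1rl1. It received IL-33 too. The WT_vehicle group was heterozygous for Cx3cr1-creER and received vehicle. All 3 groups, the WT ones included, therefore carry the creER allele, a drug-inducible recombinase expressed from the Cx3cr1 locus, which is active in microglia and other macrophages. The sources used here do not give the animals' ages or how many were pooled. A single library per group leaves no replicate check, so there is no test and no p-value. Intervals are exact 95% intervals, binomial for shares and conditional binomial for ratios, and cover counting error only.

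Cells that pass from DNA replication into mitosis first build up cyclin B and its kinase partner, then condense and separate their chromosomes on a spindle, and last destroy the cyclins through the anaphase-promoting complex. Many genes of this programme are silent in resting cells. They share short promoter elements through which the DREAM and MuvB protein complexes repress them in resting cells and, with B-Myb and FoxM1, turn them on late in the cycle. Microglia, the resident macrophages of the brain, renew themselves by division and multiply in the young brain.

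Cluster 4 G2M cells made up 0.500% of the WT_IL33 library (11 of 2202 cells, interval 0.250 to 0.892%), 2.83% of the cKO_IL33 library (76 of 2687, interval 2.23 to 3.53%) and 5.02% of the WT_vehicle library (136 of 2709, interval 4.23 to 5.91%). The share was lowest in WT_IL33, and the 3 intervals did not overlap. These shares are cluster sizes and depend on how the authors' clusters divide the cells. When every cell called G2M was counted, whatever its cluster, the shares were 12.7%, 11.0% and 14.7% in the same order. The phase call equalled the larger of the deposited S and G2M scores, where above 0, in all 7598 cells. The 269, 220 and 262 G2M calls outside cluster 4 had median G2M scores of 0.0144, 0.0111 and 0.0131 in WT_IL33, cKO_IL33 and WT_vehicle, whereas the cluster 4 G2M cells had medians of 0.544, 0.639 and 0.663. Within cluster 4 the boundary to the S call was continuous. The G2M score of the members exceeded their S score by 0.00257 at the least, by 0.439 at the median and by 1.19 at the most. The nearest S cell lay at -0.00174. The S score was also above 0 in 159 of the 223 cells. Whether a score above 0 marks replication was not tested.

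The depth behind the values differed between libraries. The summed UMIs of the cluster 4 G2M cells were 73846 in WT_IL33, 629290 in cKO_IL33 and 1264500 in WT_vehicle, so that 1 UMI in WT_IL33 stood for 13.5 CPM (counts per 1e6 UMIs of the same sum). A cluster 4 G2M cell held a median of 5324, 7660 and 8562.5 UMIs in the 3 libraries, which was 1.59, 1.53 and 1.61 times that of a cluster 0 G1 cell of the same library. The authors' sex call also differed between libraries. Of the cluster 4 G2M cells, 5 were called female and 6 male in WT_IL33, and 74 female and 2 male in cKO_IL33. In WT_vehicle none was called female and 136 male. Sex, genotype and injection thus cannot be told apart between cKO_IL33 and WT_vehicle. Between WT_IL33 and cKO_IL33 the sex calls differ beside the genotype. Cells with UMIs of both Xist and a Y-linked gene made up 13.9% of the WT_IL33 library, 0.112% of cKO_IL33 and 0.258% of WT_vehicle, and 1 of the 11 cluster 4 G2M cells of WT_IL33 was such a cell. Barcodes shared between libraries numbered 2 over all cells.

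The marker genes of the label lay far above their levels in other cells, as the choice of cells by cluster and G2M score fixes. Mki67 (chr7:135689784-135716361, GRCm38, minus strand), which encodes the chromosome surface protein Ki-67, was at 948 CPM in WT_IL33, 1576 CPM in cKO_IL33 and 1401 CPM in WT_vehicle. In cluster 0 G1 cells it was at 0, 1.01 and 1.62 CPM, and in cluster 4 S cells at 242 CPM in cKO_IL33 and 275 CPM in WT_vehicle. WT_IL33 had only 2 cluster 4 S cells and enters no comparison with them. In cells thinned to 3000 UMIs, at least 1 Mki67 UMI was found in 70% of 10, 81.3% of 75 and 83.7% of 135 cluster 4 G2M cells, in 0%, 0.222% and 0.393% of cluster 0 G1 cells, and in 2.78%, 1.46% and 3.97% of G2M calls outside cluster 4. The G2M calls outside cluster 4 thus lay far below the cluster 4 G2M cells for this gene. In WT_vehicle their interval (1.92 to 7.18%) lay above that of the cluster 0 G1 cells (0.0811 to 1.14%). In WT_IL33 and cKO_IL33 the intervals of these sets overlapped.

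The same order held for the other markers. Top2a, the topoisomerase that untangles sister chromatids, was at 1178, 1103 and 1098 CPM in WT_IL33, cKO_IL33 and WT_vehicle, against 0.506 to 3.23 CPM in cluster 0 G1 cells. Cenpf, a kinetochore protein, was at 433, 876 and 745 CPM, against 0 to 1.62 CPM. All 3 libraries lay far above their own G1 cells for both genes. Birc5, the survivin subunit of the chromosomal passenger complex, was at 271, 385 and 356 CPM, and Prc1, which bundles midzone microtubules, at 325, 445 and 427 CPM. Ube2c, the ubiquitin-conjugating enzyme of the anaphase-promoting complex, was at 257, 432 and 369 CPM. Hmmr, a spindle assembly factor, was at 230, 415 and 307 CPM. WT_IL33 had the lowest level for each of these genes except Top2a, for which it had the highest.

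**Figure D1:**
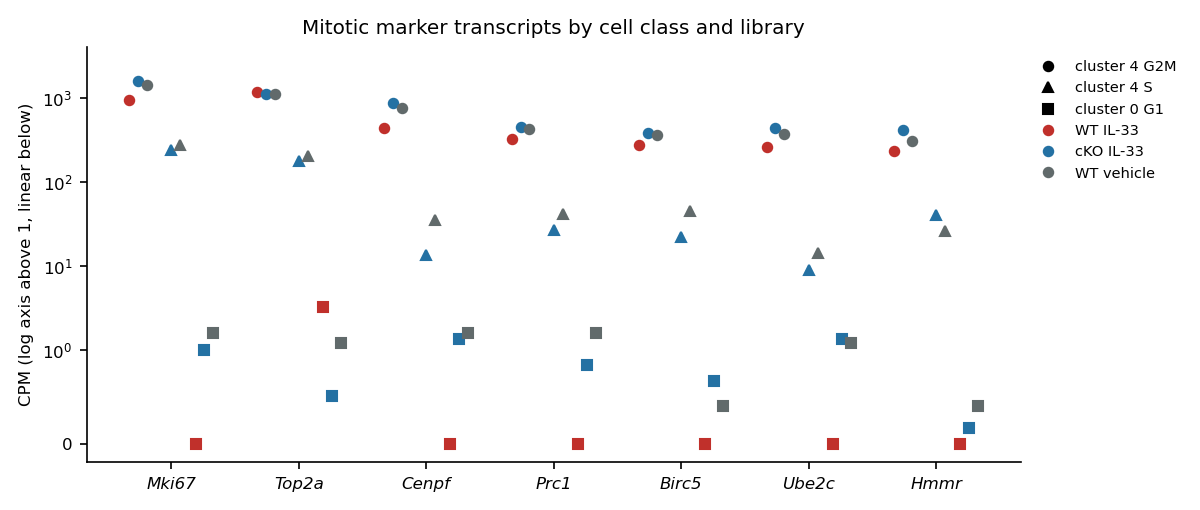
Levels in CPM (symmetric log axis) of the marker genes in cluster 4 G2M cells, cluster 4 S cells and cluster 0 G1 cells, 1 point per library, with the S cells of WT_IL33 left out because there are only 2. Mki67 lay between 948 and 1576 CPM in the G2M cells, at 242 and 275 CPM in the S cells and at no more than 1.62 CPM in the cluster 0 G1 cells.

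To show the elements that such genes share, the promoters of 4 of these markers and of the mitotic regulators Cdc20 and Ccnb2 are printed from 100 bases before to 20 bases after the RefSeq start (GRCm38.p6), in the direction of the gene. Capitals mark the cell cycle homology region (CHR, searched as TTTGAA and TTCGAA) and the CCAAT box (CCAAT), each on both strands. The windows are chr1:189688067-189688186 (minus strand) for Cenpf, chr7:80294351-80294470 (plus) for Prc1, chr2:164769829-164769948 (plus) for Ube2c, chr11:40733418-40733537 (minus) for Hmmr, chr4:118437324-118437443 (minus) for Cdc20 and chr9:70421535-70421654 (minus) for Ccnb2.
Cenpf: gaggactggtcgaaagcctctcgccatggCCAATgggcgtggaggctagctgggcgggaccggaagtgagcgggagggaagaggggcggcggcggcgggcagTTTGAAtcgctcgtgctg
Prc1: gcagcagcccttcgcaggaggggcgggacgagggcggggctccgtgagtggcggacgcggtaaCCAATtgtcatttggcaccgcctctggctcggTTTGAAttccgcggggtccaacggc
Ube2c: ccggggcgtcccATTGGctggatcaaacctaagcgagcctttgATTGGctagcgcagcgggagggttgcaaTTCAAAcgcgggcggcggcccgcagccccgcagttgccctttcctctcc
Hmmr: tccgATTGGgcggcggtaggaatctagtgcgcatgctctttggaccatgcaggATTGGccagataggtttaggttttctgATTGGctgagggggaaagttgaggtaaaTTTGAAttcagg
Cdc20: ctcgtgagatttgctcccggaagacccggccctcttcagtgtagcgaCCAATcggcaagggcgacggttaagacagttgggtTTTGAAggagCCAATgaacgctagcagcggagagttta
Ccnb2: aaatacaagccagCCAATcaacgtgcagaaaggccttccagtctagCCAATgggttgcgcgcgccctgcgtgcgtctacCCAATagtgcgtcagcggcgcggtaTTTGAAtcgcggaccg
Each of these 6 windows held 1 CHR match and at least 1 CCAAT box before it. In Cdc20 one of the CCAAT boxes followed the CHR match. In Cenpf, Hmmr and Ccnb2 the CHR match began 2, 8 and 4 bases after the start base, and in Prc1, Ube2c and Cdc20 it began 5, 29 and 18 bases before it. Within windows of 300 bases, from 250 before to 50 after the start, a CHR match was present in 6 of 7 marker promoters, Birc5 being the exception, and in 5254 of 27025 RefSeq promoters (19.44%). A match is a description of letters and not a measured binding site.

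Against cluster 0 G1 cells, 383 of 4169 genes were at least 2-fold higher in cluster 4 G2M cells (9.19%) and 134 were at least 2-fold lower (3.21%), on the mean log2 ratio of the 3 libraries with 1 CPM added. In each of the libraries singly, 264 genes were higher (6.33%) and 6 were lower (0.144%). The count of lower genes was 27 without WT_IL33. In the 11 cells of that library many genes had 0 UMIs, and the part of this in the count was not tested. The clusters were drawn from the same counts, so these differences describe the class and do not test it. The largest mean log2 ratios were those of Mki67 (9.52), the linker histone gene Hist1h1b (8.87), Top2a (8.86), Cenpf (8.49), Hmmr (8.03), Birc5 (7.97), Prc1 (7.87) and Cdca8 (7.86), the borealin subunit of the passenger complex. After these came Cenpe (7.77), the kinetochore kinesin, Kif23 (7.72), the midzone kinesin, Ube2c (7.64) and Nusap1 (7.50), a spindle protein. Where cluster 0 G1 cells held 0 UMIs, the ratio depends on the added 1 CPM. The counted ratio of Mki67 was 864 in WT_vehicle (interval 438 to 2005), and at least 97.8-fold in WT_IL33 from a floor of 3 counts.

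The genes of the mitotic machinery were higher by role. Lists of genes are counted over members at 10 CPM or more in either class, where, of all 9031 genes, 933 passed 2-fold upward (10.3%) and 1021 downward (11.3%), with a median log2 ratio of 0.02. All 20 cyclins and mitotic kinases were higher (median 5.89), among them Pbk (7.38), Ccnb2 (7.30), Ccna2 (6.91) and Ccnb1 (6.61). So were all 6 genes of the chromosomal passenger complex (6.61), all 25 of the kinetochore and centromere (4.84), 29 of 30 of the spindle and kinesins (5.65), 13 of 15 of cytokinesis (5.83) and 20 of 21 of condensin and chromosome structure (3.20). The anaphase-promoting complex differed from these. Of its 21 genes, 7 were higher and 1 lower, with a median of 0.47, and the higher ones included Ube2c (7.64), the activator Cdc20 (6.80), the inhibitor Fbxo5 (4.94) and the chain-elongating enzyme Ube2s (2.41).

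Replication genes were also above the resting level. The 38 replication-dependent histone genes were all higher (median 3.62), led by Hist1h1b, Hist1h3c (6.95) and Hist1h2ae (6.85). Of 40 replication genes, 33 were higher (2.24), led by Rrm2 (6.94), Tk1 (4.72), Rrm1 (4.47) and Tyms (3.47), which make deoxynucleotides. Of the 19 genes of nucleotide synthesis, 10 were higher (1.07), and these 4 led that list too. Ribosomal protein genes had a median of -0.29 and mitochondrially encoded genes a median of 0.17.

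Genes that restrain the cycle were among the higher ones. Cdkn1a, the p21 inhibitor, was at 379 CPM in WT_IL33, 161 CPM in cKO_IL33 and 163 CPM in WT_vehicle, against 51.7, 18.9 and 35.3 CPM in cluster 0 G1 cells. Its ratio was 7.34 (3.83 to 14.5), 8.50 (6.43 to 11.2) and 4.62 (3.76 to 5.69). All 3 intervals lay above 1. The INK4 inhibitor genes Cdkn2c and Cdkn2d had mean log2 ratios of 3.66 and 3.49, and cyclin G1 (Ccng1) 1.73. In all, 7 of 18 genes of this list were at least 2-fold higher and 2 lower, with a median of 0.15. Cyclin D1 (Ccnd1), which drives entry into the cycle, was at 108, 124 and 134 CPM in the G2M cells and at 268, 176 and 167 CPM in cluster 0 G1 cells.

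The 6 genes lower in every library were Mras, a Ras-family GTPase (mean log2 ratio -2.02), the sulfotransferase gene Sult1a1 (-1.53), Ltc4s, leukotriene C4 synthase (-1.39), the autophagy gene Map1lc3a (-1.29), Fgd4 (-1.28) and the pro-apoptotic Bmf (-1.22). Ltc4s had the most UMIs of these, with 284, 515 and 639 CPM in WT_IL33, cKO_IL33 and WT_vehicle against 1043, 1212 and 1343 CPM in cluster 0 G1 cells. Its fold was 3.67 (2.36 to 6.01), 2.35 (2.11 to 2.64) and 2.10 (1.95 to 2.26) lower.

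Microglial identity genes had a median log2 ratio of -0.37 to cluster 0 G1 cells, and of 26 such genes none was 2-fold higher and 1 was 2-fold lower on the mean of the libraries. WT_IL33 had a median of -0.70 and 8 of 26 genes 2-fold lower, against -0.30 and none in cKO_IL33 and -0.29 and 1 in WT_vehicle. Of all 9031 genes at 10 CPM, 2005 were 2-fold lower in WT_IL33, 333 in cKO_IL33 and 167 in WT_vehicle. The count of 8 thus stands on a larger background of lower genes in WT_IL33, and it is not read as particular to identity genes. P2ry12, the ADP receptor of microglia, was at 934, 2220 and 2517 CPM against 2481, 3571 and 3838 CPM. In WT_IL33, 8 of 11 G2M cells and all 84 cluster 0 G1 cells held a P2ry12 UMI, with medians of 3 and 9 UMIs. G1 cells of cluster 1, the largest G1 set of that library, held one in 863 of 1081 cells, with a median of 2. The lower P2ry12 level in WT_IL33 is thus not read as particular to dividing cells. Slc2a5, a fructose transporter, had the lowest ratio (-1.23), followed by the receptors Gpr34 (-0.97) and P2ry13 (-0.93). Csf1r, the receptor for the microglial growth factors, was at 2248, 3115 and 3067 CPM in the G2M cells, and Tmem119 at 1083, 1518 and 1218 CPM. Every cluster 4 G2M cell held UMIs of at least 3 of 8 microglial markers. No UMI of the T cell, NK cell or neutrophil markers was found in them. At least 3 of 6 oligodendrocyte markers were held by 2 of 76 cells in cKO_IL33 and 3 of 136 in WT_vehicle. In cluster 0 G1 cells this was 11 of 926 and 9 of 786. Astrocyte genes summed to 122, 113 and 52.2 CPM in WT_IL33, cKO_IL33 and WT_vehicle, against 233, 267 and 139 CPM in cluster 0 G1 cells. Dendritic cell genes summed to 108, 4.77 and 3.16 CPM, against 32.3, 5.57 and 5.07 CPM. In WT_IL33 this sum came from 8 UMIs, 6 of them of Ccr7. A Ccr7 UMI was also held by 553 of the 1081 G1 cells of cluster 1 in that library. The B cell list was seen through 2 of 6 genes (Cd79b and Ighm, 205 to 339 CPM in sum), and the border macrophage list through 3 of 7 genes in cKO_IL33 and in WT_vehicle and none in WT_IL33, with Cd163, Lyve1 and Ms4a7 at 0. The border macrophage genes summed to 0, 66.7 and 68.0 CPM in WT_IL33, cKO_IL33 and WT_vehicle, against 12.9, 23.4 and 34.9 CPM in cluster 0 G1 cells. The 6 monocyte genes summed to 0, 73.1 and 116 CPM against 22.6, 27.3 and 56.8 CPM. No cluster 4 G2M cell held 3 markers of either list, and their part in the results was not tested. Nes, a progenitor gene, was at 94.8, 68.3 and 129 CPM against 19.4, 12.7 and 19.7 CPM in cluster 0 G1 cells, while the neural progenitor genes Sox2, Sox11 and Hes5 were at 0.

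**Figure D2:**
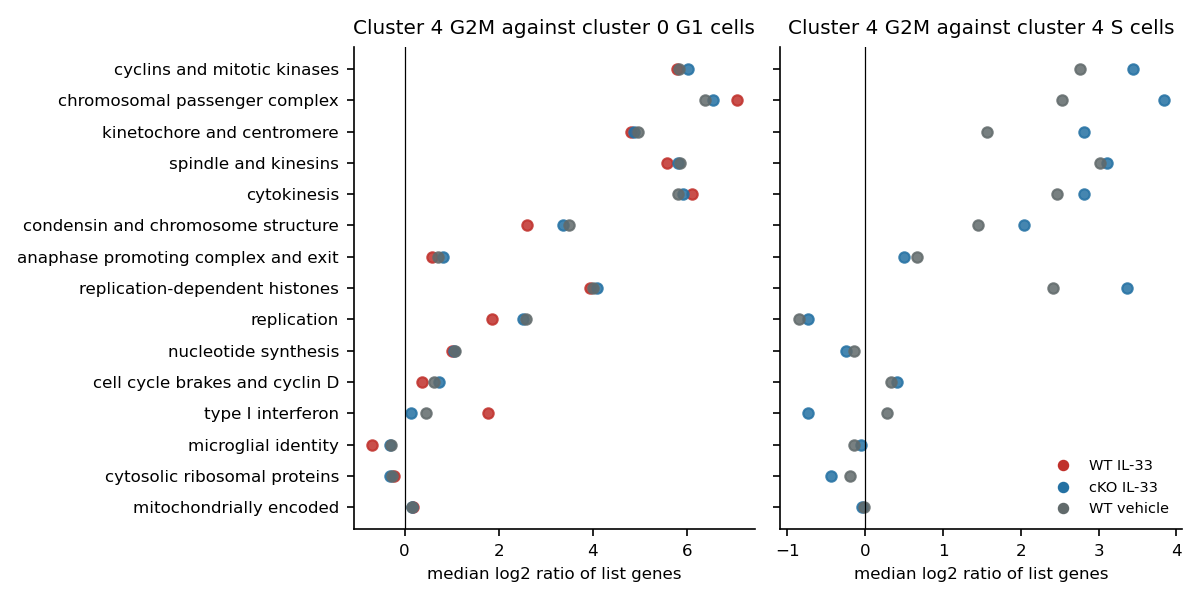
Median log2 ratio of 15 gene lists in each library, with 1 CPM added, for cluster 4 G2M cells over cluster 0 G1 cells (left) and over cluster 4 S cells (right, 2 libraries). The cyclin, passenger complex, kinetochore, spindle and cytokinesis lists lay far above 0 on both sides and the anaphase-promoting complex between 0.50 and 0.82. The replication list was above 0 on the left and below 0 on the right, and the identity list was at -0.70 in WT_IL33 and nearer 0 in the other libraries.

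Against the S cells of cluster 4, the G2M cells differed by 236 higher genes (5.95% of 3969) and 43 lower genes (1.08%), and 185 (4.66%) and 29 (0.731%) passed in both cKO_IL33 and WT_vehicle. The call itself divides these cells by the larger of the S and G2M scores, so mitotic genes above and S-phase genes below S cells describe the call and are no test. The mean log2 ratio was 5.68 for Mxd3, a MAX-binding repressor, and stood high for Pimreg (5.32), the minus-end kinesin Kifc1 (5.30), the centromeric histone Cenpa (5.28), Cenpf (5.14), Cdc20 (5.12), Hist1h2ab (5.11) and Ube2c (5.01). The S cells of cKO_IL33 held 0 UMIs of Mxd3, Pimreg, Kifc1, Cdc20 and Hist1h2ab, so the order of these genes depends on the added 1 CPM. Cenpa was at 404 and 472 CPM in the G2M cells of cKO_IL33 and WT_vehicle and at 8.95 and 11.8 CPM in the S cells. Its ratio was 45.1 (12.4 to 374) and 39.9 (20.9 to 87.7). Mxd3 was at 68.3 and 37.2 CPM against 0 UMIs in both sets of S cells, at least 5.09-fold and at least 9.43-fold higher from a floor of 3 counts.

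The markers differed in how far the G2M cells exceeded the S cells. Mki67 and Top2a were already present in S cells, and their ratios of G2M to S cells were 6.52 (4.96 to 8.74) and 6.16 (4.48 to 8.70) in cKO_IL33, and 5.10 (4.42 to 5.92) and 5.46 (4.62 to 6.49) in WT_vehicle. Cenpf was at 13.4 and 35.5 CPM in S cells, giving ratios of 65.2 (22.2 to 317) and 21.0 (14.3 to 32.0). Ube2c had ratios of 48.3 (13.2 to 401) and 25.5 (14.1 to 51.4). The intervals of Cenpf and Ube2c lay above those of Mki67 and Top2a in both libraries. Cyclin B1 (Ccnb1) was at 178 and 126 CPM in the G2M cells against 4.48 and 11.8 CPM in S cells.

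By role, all 20 cyclins and mitotic kinases (median log2 ratio 3.20), 27 of 30 spindle and kinesin genes (3.32), all 6 passenger complex genes (3.30), 13 of 15 cytokinesis genes (2.52) and 19 of 25 kinetochore genes (2.18) were at least 2-fold higher than in S cells. Among all 8947 genes at 10 CPM, 722 (8.07%) were higher and 294 (3.29%) lower, with a median of 0.04. Replication genes were on the lower side, with 15 of 42 lower and 2 higher (-0.79). The lowest ratios were those of Ung (-4.41), which removes uracil from DNA, the chromatin remodeller Hells (-3.14), the origin licensing factor Cdt1 (-2.74), E2f1 (-2.32) and the helicase subunits Mcm6 (-2.24) and Mcm4 (-2.08). Ung was at 3.18 and 1.58 CPM in the G2M cells of cKO_IL33 and WT_vehicle against 71.6 and 65.7 CPM in S cells. Mcm6 was at 39.7 and 38.7 CPM against 210 and 170 CPM, a 5.30-fold (3.19 to 8.98) and 4.37-fold (3.13 to 6.21) lower level. Rrm2, a subunit of ribonucleotide reductase, was the other way round, at 181 and 147 CPM against 53.7 and 74.9 CPM in S cells.

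Histone transcripts did not follow the other replication genes. Of 37 replication-dependent histone genes, 34 were at least 2-fold higher in G2M than in S cells and none was lower (median log2 ratio 3.13). Hist1h1b (chr13:21779883-21780625, minus strand) was at 1634 and 1760 CPM in the G2M cells of cKO_IL33 and WT_vehicle against 116 and 250 CPM in the S cells, a ratio of 14.0 (9.52 to 21.6) and 7.05 (6.07 to 8.22). With cells thinned to 3000 UMIs it was found in 61.3% and 60% of G2M cells and in 12.9% and 21.8% of S cells. These transcripts mostly lack a poly(A) tail, so a library primed on poly(A) counts an unknown part of them.

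The cluster 4 G2M cells varied widely among themselves in these histone genes. Their share of a cell's UMIs had a median of 0.311% in WT_IL33, 0.415% in cKO_IL33 and 0.449% in WT_vehicle, and reached 0.864%, 2.15% and 1.87%. In S cells the median was 0.0383% in cKO_IL33 and 0.0411% in WT_vehicle. The lower quartile among the G2M cells was 0.134% and 0.132% in cKO_IL33 and WT_vehicle, and the upper quartile 0.977% and 0.976%. Across the 76 cells of cKO_IL33 and the 136 of WT_vehicle, the histone share went with the replication gene share (Pearson's r 0.65 and 0.62) and with the S score (0.71 and 0.70), and less with the total UMIs (0.17 and -0.01). It also went with the cyclin and kinase share (0.52 and 0.60) and with the G2M score (0.53 and 0.58). Both scores entered the call that chose these cells, so these values describe the chosen cells and are no test. Cells of 1 library share a preparation and are not replicates, and shares of the same total are linked to each other.

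**Figure D3:**
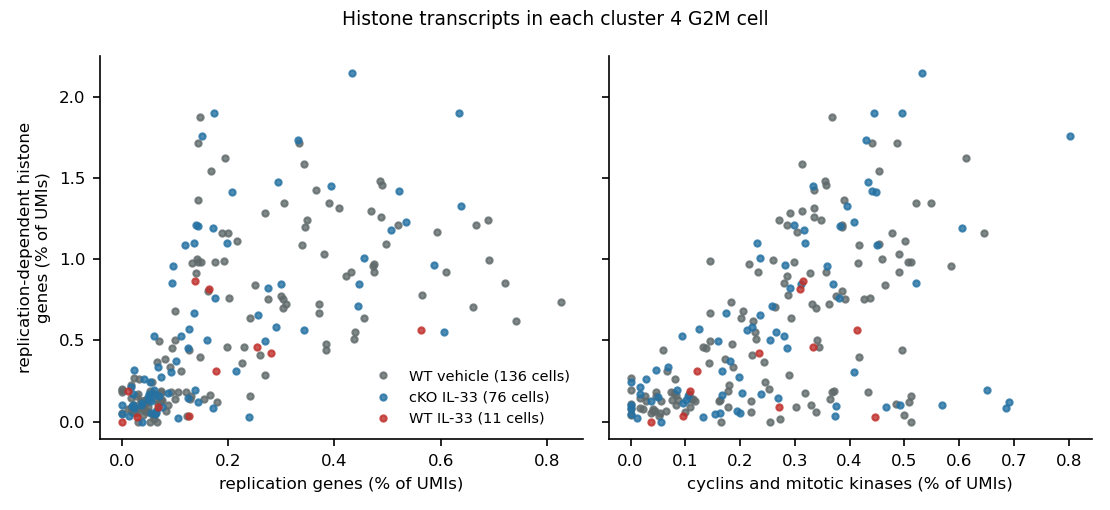
Share of each cluster 4 G2M cell's UMIs from histone genes (vertical axes, percent) against its share from replication genes (left) and from cyclins and mitotic kinases (right), 1 point per cell, by library. Histone shares ran up to 2.15% and were higher in cells with higher replication shares.

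Among the 223 cells, the genes whose level per cell was most like that of Mki67 were Top2a (Pearson's r 0.70), the kinetochore scaffold Knl1 (0.68), Kif23 (0.67), Prc1 (0.66) and the lamina protein Tmpo (0.65), out of 5673 genes. Kif11, the motor that makes the spindle bipolar (0.61), Hmgb2 (0.60) and Cenpf (0.59) were also among the 10 nearest. The cyclin and kinase share and the kinetochore share had r of 0.77 in cKO_IL33 and 0.86 in WT_vehicle. The identity gene share, with medians of 8.20%, 7.69% and 6.88% in WT_IL33, cKO_IL33 and WT_vehicle against 10.4%, 9.99% and 9.01% in cluster 0 G1 cells, had r of -0.17 and -0.27 with the cyclin and kinase share.

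The promoter letters differed between the G2M and S sides of the comparison. These sides follow from the call by the larger score, so the shares describe the call and are no test. In a list of 54 G2M phase genes, 53 were at least 2-fold higher than in S cells, and 35 of its 47 matched promoters held a CHR match. No such gene was set aside. A CHR match lay in 84 of the 139 matched promoters of genes higher in G2M than in S cells (60.43%), in 1 of 25 of those lower (4%), and in 496 of 3204 of all tested genes (15.48%). By role it lay in 69.23% of spindle and kinesin promoters (18 of 26), 62.5% of cyclin and kinase promoters (10 of 16) and 17.65% of replication promoters (6 of 34). CCAAT boxes divided the sides less, with 64.75% of the higher and 52% of the lower genes against 37.92% of all promoters. Both motifs together within the nearest 150 bases were present in 30.94% of the higher genes, in none of the 25 lower ones and in 2.091% of all promoters. No histone promoter was matched.

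**Figure D4:**
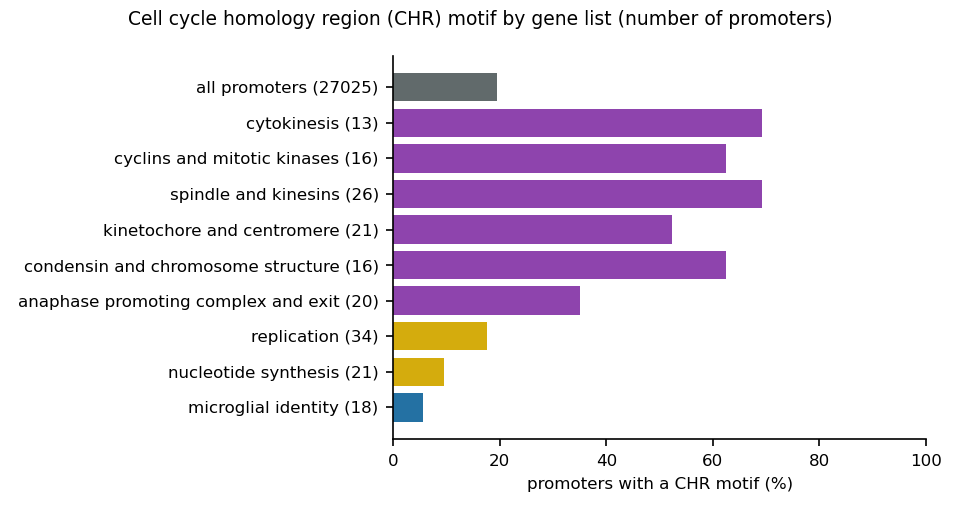
Percent of RefSeq promoters (300 bases, GRCm38.p6) that held a CHR match, for all promoters and for each gene list, with the number of promoters in brackets. The spindle list reached 69.23%, and the replication list, at 17.65%, lay near the 19.44% of all promoters.

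The injection groups were then compared within the cluster 4 G2M cells. The floxed gene Il1rl1 (chr1:40429570-40465415) was close to the limit of detection in them, with 2 UMIs in WT_IL33, 3 in cKO_IL33 and 8 in WT_vehicle, and the counts do not tell which exons the UMIs come from, so they check no deletion. Il33 had 0 UMIs in all of them. Between WT_IL33 and WT_vehicle, 833 of 4626 genes lay at least 2-fold above WT_vehicle (18%) and 610 below (13.2%). The interval of the ratio excluded 1 for 477 and 250 of them. In G1 cells outside cluster 4 the same contrast gave 543 higher (13.3%) and 369 lower genes (9.01%). Since WT_IL33 had 11 such cells, single cells carry single genes. All 51 UMIs of Saa3, an acute-phase gene with a log2 ratio of 9.43, came from 1 cell.

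Inflammatory response genes were far higher in the G2M cells of WT_IL33. The chemokine Ccl4 (chr11:83662584-83664683, plus strand) was at 2140 CPM in WT_IL33, 6.36 CPM in cKO_IL33 and 2.37 CPM in WT_vehicle, a 902-fold higher level in WT_IL33 than in WT_vehicle (303 to 4420), and 10 of the 11 cells held a UMI, with a median of 5 and at most 63 UMIs in a cell. In cluster 0 G1 cells of that library, with a lower median depth of 3354 UMIs, 20 of 84 held a UMI. Ccl3 was at 1788, 4.77 and 11.9 CPM (151-fold, 88.1 to 277) with a UMI in 8 of 11 cells, of which 1 held 55 of the 132 UMIs. Ccl12 was at 6026, 318 and 440 CPM (13.7-fold, 12.1 to 15.5). For all 3 chemokines cKO_IL33 was far below WT_IL33, and the interval of its Ccl4 ratio to WT_vehicle (0.453 to 18.3) held 1.

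The rest of the response was of the same form. Of 12 chemokines 11 were at least 2-fold higher (median log2 ratio 4.17), and of 25 NF-kB targets 21 were higher and 1 lower (3.19). Among all 9531 genes at 10 CPM, 20.9% were higher and 20.6% lower, with a median of 0.08. Nfkbiz, an NF-kB co-regulator, was at 961 CPM against 15.9 and 19.0 CPM, and Gpr84, a medium-chain fatty acid receptor, at 2275 against 92.2 and 60.9 CPM. The niacin receptor gene Hcar2 was at 691 CPM, and at 1.59 and 1.58 CPM in cKO_IL33 and WT_vehicle. Cd14, the co-receptor for lipopolysaccharide, was 13.6-fold higher (10.5 to 17.5), but 1 of the 11 cells held 50 of its 114 UMIs in WT_IL33. In G1 cells outside cluster 4 the same lists had medians of 5.09 (14 of 15 chemokines higher) and 3.31 (22 of 25 NF-kB targets higher), on a background of 12.2% higher genes.

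Many response genes had levels in the dividing cells of WT_IL33 above those in its cluster 0 G1 cells. Cluster 0 G1 cells made up 3.81% of WT_IL33, 34.5% of cKO_IL33 and 29.0% of WT_vehicle. The clusters were drawn from the same counts, so levels above cluster 0 describe the clusters and are no test. Several response genes lay below the G1 cells of WT_IL33 outside cluster 4, most of which were in cluster 1. Against the cluster 0 G1 cells, 9 of 11 chemokines were at least 2-fold higher and 0 lower. Of 25 NF-kB targets 14 were higher and 2 lower, and of 9 cytokines 4 were higher and 3 lower. Among all 9031 genes at 10 CPM, 1898 were higher and 2005 lower in that library. Ccl4 was at 2140 CPM in the G2M cells and at 5304 CPM in G1 cells outside cluster 4, and Ccl3 at 1788 and 3412 CPM. Il1b was at 271 CPM in the G2M cells and at 1213 CPM in G1 cells outside cluster 4, and Il12b at 81.3 and 1354 CPM. Il12b came from 6 UMIs in 3 cells, at least 34.2-fold over WT_vehicle, where it had 0 UMIs. Tnf, at 339 and 400 CPM, and Nfkbiz, at 961 and 899 CPM, were close to each other in the 2 sets of cells. In cluster 0 G1 cells of WT_IL33, Il1b was at 119 CPM, Il12b at 19.4 CPM and Ccl4 at 152 CPM, below the G2M cells. G1 cells of cluster 1, the largest such set of that library, held a Ccl4 UMI in 933 of 1081 cells and an Il12b UMI in 531. P2ry12 was 2.69-fold lower in the G2M cells of WT_IL33 than of WT_vehicle (2.12 to 3.47), where 1 cell held 35 of the 69 UMIs of WT_IL33.

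**Figure D5:**
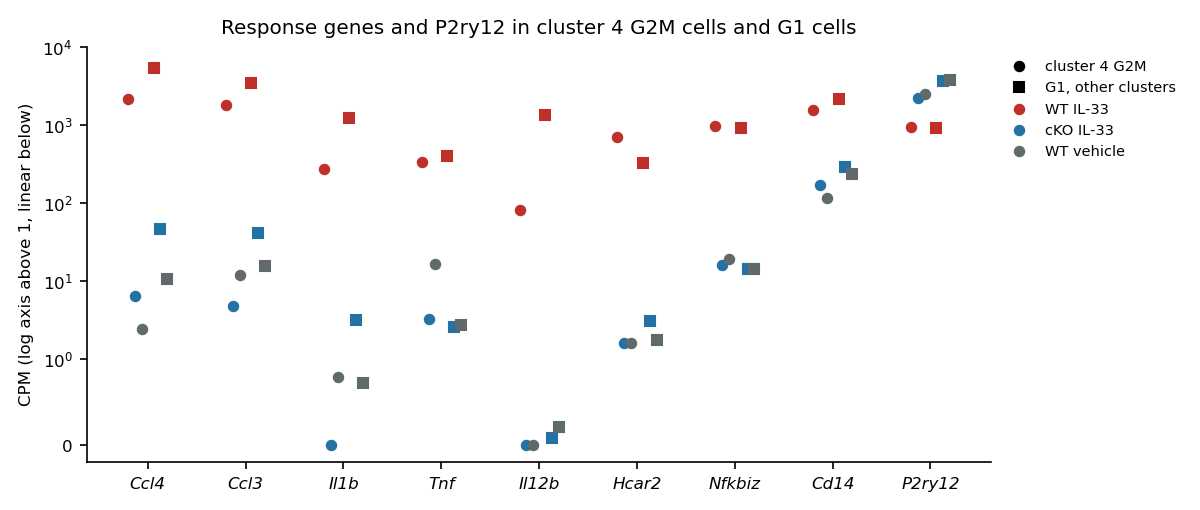
Levels in CPM (symmetric log axis) of Ccl4, Ccl3, Il1b, Tnf, Il12b, Hcar2, Nfkbiz, Cd14 and P2ry12 in cluster 4 G2M cells and in G1 cells outside cluster 4, 1 point per library. In both sets WT_IL33 lay above the other libraries for each response gene, with Ccl4 at 2140 CPM in the G2M cells, and below them for P2ry12.

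Most cell cycle lists had medians below 0 in WT_IL33 against WT_vehicle, beside 20.9% of all genes higher and 20.6% lower. The 20 cyclins and mitotic kinases had a median log2 ratio of -0.28, with none 2-fold higher and 3 lower, a share below that of all genes, and the spindle genes -0.81, with 2 higher and 12 lower. Replication genes had a median of -0.86 (4 higher, 18 lower) and histone genes -0.50 (7 higher, 12 lower). The anaphase-promoting complex (0.04) and the list of brakes and cyclin D (0.12) lay slightly above 0. Kif11 was at 40.6 CPM in WT_IL33 against 280 and 246 CPM in cKO_IL33 and WT_vehicle, 6.05-fold lower than WT_vehicle (2.05 to 29.5), and Mki67 was 1.48-fold lower (1.16 to 1.91). Hist1h1b was at 718 CPM, 2.45-fold lower (1.87 to 3.28). Cdkn1a was 2.33-fold higher (1.51 to 3.46), and Cdkn2c, at 13.5 CPM from 1 UMI, was at 184 CPM in WT_vehicle. Members with few UMIs per gene and the lower depth of WT_IL33 moved with these medians, and their part was not tested.

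Between WT_IL33 and cKO_IL33, 708 of 4499 genes were higher in cKO_IL33 (15.7%) and 571 lower (12.7%), with intervals excluding 1 for 288 and 353. G1 cells outside cluster 4 gave 430 (10.4%) and 483 (11.6%). The 3 contrasts between libraries share samples and are set side by side only. Ccl4 was 337-fold lower in cKO_IL33 (129 to 1251). The cKO_IL33 and WT_vehicle cells, in contrast, differed in 26 higher genes (0.656% of 3963) and 8 lower genes (0.202%), and G1 cells outside cluster 4 in 13 (0.363%) and 3 (0.0837%). The first were led by Xist (11.81) and Tsix (8.43) and the second by the Y-linked Ddx3y (-6.64) and Eif2s3y (-6.42), as the sex calls of the 2 libraries differ. The autosomal genes Fkbp5, an Hsp90 co-chaperone gene induced by glucocorticoids, and Ccnd3, cyclin D3, were higher in cKO_IL33. Fkbp5 was at 94.8 CPM in WT_IL33, 329 CPM in cKO_IL33 and 118 CPM in WT_vehicle (cKO_IL33 over WT_vehicle 2.79-fold, 2.25 to 3.47), and Ccnd3 at 81.3, 167 and 60.1 CPM (2.78-fold, 2.05 to 3.78). Sult1a1 was 3.49-fold higher (1.93 to 6.50) and Cd74, the invariant chain, 2.09-fold lower (1.39 to 3.26). G1 cells outside cluster 4 showed Fkbp5 at 349 and 118 CPM and Ccnd3 at 211 and 101 CPM in cKO_IL33 and WT_vehicle. Mki67 differed by 1.12-fold (1.04 to 1.22), and the 20 cyclins and mitotic kinases had a median of 0.07 with none past 2-fold, where 3.36% of all genes at 10 CPM were higher and 2.46% lower.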

How the data were processed

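The values are the authors' raw UMI counts, deposited for 20586 genes and 7598 cells from 3 libraries. Per the file headers, another deposited table lists each cell's library, sex call, cluster number and phase call. It also gives the authors' S and G2M scores per cell and the percent of its UMIs from mitochondrial and ribosomal genes. Cells were sorted after a Percoll gradient on ice and profiled with 10x Chromium chemistry, per the labels' protocols. Cell Ranger 5.0, Seurat 4.0.1 and the builds GRCm38 and mm10 are named, with no roles, per the submitters' processing notes. How cells were filtered, how doublets were treated and which genes made the phase scores is not given in the sources read. No doublet caller was run. Alternatives left out cells over 15000 UMIs, or cells in which Xist and a Y-linked gene were both seen.

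UMIs were summed per class and library and divided by the sum to give CPM (python 3.11.15, numpy 2.4.6, scipy 1.17.1, pandas 2.3.3). Log2 ratios used a pseudocount of 1 CPM. Ratios between classes were averaged with equal weight over libraries with at least 10 cells of both classes. Tested genes had 50 CPM in either class and 20 UMIs over both, and a gene was called at 2-fold. Genes of a list were counted at 10 CPM. For a gene at 0 UMIs a floor of 3 counts gave the bound. Named genes were drawn from the 15 highest and 10 lowest ratios of a comparison, up to 4 genes of each list and the markers. Genes named outside this rule, among them Nes, Il12b, Kif11 and Ccnd1, were chosen after their values were seen. Likeness was Pearson's r of log-scaled counts over genes seen in at least 20% of cells. The members and lists were chosen with earlier results of these data known. The sums and intervals were tested on simulated sums that held counting error only, with no variation between cells. That test does not show how the intervals hold where single cells carry many UMIs.

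Gene positions come from the GENCODE annotation of GRCm38 and promoters from RefSeq (GRCm38.p6), both matched by symbol. Alternatives were other pseudocounts and filters, other scalings, thinning, other reference cells and leaving out each library.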

Additional observations from a re-analysis of the deposited data

How the results depend on the processing

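The limits are those of 1 library per group and of 11 cells in WT_IL33. Counts of genes are for the 2-fold rule, and the cause of each move was not tested.

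Against cluster 0 G1 cells, the 383 higher genes became 1058 with no CPM minimum, 194 at 100 CPM and 118 with all G2M calls, and the 134 lower genes became 1600, 51 and 5. The lower genes also became 80 with a pseudocount of 10, 224 with median-of-ratios scaling, 223 with per-cell means, 430 with thinned cells, 239 without cells over 15000 UMIs and 220 without cells with both Xist and Y-linked UMIs. Leaving out each library gave 365 to 449 higher and 27 to 275 lower genes. The 264 genes higher in every library became 481, 149 and 58, and 282 to 332 with a library left out. The 6 lower in every library became 74, 2 and 0, and 3 with a pseudocount of 10, 17 with median-of-ratios scaling, 11 with totals without mitochondrial and ribosomal genes, 14 with per-cell means, 18 thinned, 15 without cells over 15000 UMIs, 2 against all G1 cells outside cluster 4 and 10 to 23 with a library left out.

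Against S cells, the 236 higher genes became 808 with no minimum, 136 at 100 CPM, 362 thinned and 208 to 373 with a library left out. The 43 lower became 244, 19, 135 and 43 to 129, and 28 with a pseudocount of 10, 69 with the other totals, 69 with per-cell means and 66 without cells over 15000 UMIs. The 185 higher in both libraries became 356, 119 and 185 to 373, and the 29 lower became 95, 14, 53 thinned, 14 with a pseudocount of 10 and 29 to 129.

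For WT_IL33 against WT_vehicle, the 833 higher genes became 418 at 100 CPM, 499 thinned and 519 with all G2M calls, and the 610 lower became 1571 with no minimum and 276 at 100 CPM. For cKO_IL33 against WT_IL33, the 708 higher became 1191 and 304, and the 571 lower became 377 at 100 CPM and 247 thinned. For cKO_IL33 against WT_vehicle, the 26 higher became 10 with a pseudocount of 10, 160 with no minimum, 8 at 100 CPM, 128 thinned and 10 with all G2M calls. The 8 lower became 2, 159, 0, 86 and 5, and 19 with the other totals and 14 without cells over 15000 UMIs. With all G2M calls as members, the shares of cells were 12.7%, 11.0% and 14.7%.

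Of 420 list medians recomputed, 392 moved by under 1.5-fold and 28 by more, and 0 of those of at least 1 in size changed sign. No paired analysis was possible because each group was 1 library.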

Other observations

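Type I interferon genes were also compared between cluster 4 G2M and cluster 0 G1 cells. The 15 genes had a median log2 ratio of 1.78 in WT_IL33, 0.13 in cKO_IL33 and 0.44 in WT_vehicle. In the same order 9, 2 and 5 of them were at least 2-fold higher and 1, 0 and 0 lower. Among all 9031 genes at 10 CPM, 1898, 879 and 865 were higher and 2005, 333 and 167 lower. Against cluster 4 S cells, 14 such genes had medians of -0.73 in cKO_IL33 (1 higher, 5 lower) and 0.28 in WT_vehicle (4 higher, 0 lower). Ifi27l2a, an interferon-induced gene, was at 81.3, 443 and 622 CPM in the G2M cells and at 19.4, 105 and 192 CPM in cluster 0 G1 cells. It was thus higher in the dividing cells of every library, though on few UMIs in WT_IL33. Isg15 was at 135, 11.1 and 21.4 CPM against 19.4, 10.6 and 12.8 CPM. The fractalkine receptor gene Cx3cr1, of which all groups carry a creER allele, was at 3521, 2237 and 2157 CPM in the G2M cells.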
